A study of Eutrema with 12 samples.

Results

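Transcripts in cauline leaves of Thellungiella (listed as Eutrema in the sample records) growing at a Yukon field site in 2005 were compared with those in cauline leaves of cabinet-grown plants. The comparison took 6 of the 12 arrays of the series, chosen by their titles: the 2 arrays of each of 3 individual field plants, A, B and C, 1 with its RNA in Cy3 and 1 with it in Cy5. The field and cabinet plants were both of the Yukon ecotype. The cabinet plants were 12 weeks old, received no treatment and were grown under 21 h days at 22 °C, with nights at 10 °C. The field plants grew under ambient conditions, and their ages are not given in the sources used here. The third plant of 2005 is C in the sample titles and D in the design description, and is called C here. By the sample records, field mRNA was amplified and cabinet mRNA was not, a distinction that the study's methods do not repeat. With RNA prepared as in the records, an effect of amplification and an effect of the field cannot be told apart. It is not stated whether the field plants were set against separate cabinet RNAs or a common one, and with a common one the tests hold no variation among cabinet plants. The p-values then measure only the spread among field plants. The leaf identity of the samples was not checked against marker genes, because no table used here links the clones on the array to genes.

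Cauline leaves are the leaves borne on flowering stems. Thellungiella is a crucifer related to Arabidopsis that tolerates salt, freezing and water deficit. In Arabidopsis, the hormone abscisic acid (ABA) accumulates when water is short and induces dehydration-responsive genes, whereas transcription factors of the CBF/DREB1 family switch on COR genes in the cold. Sucrose and other compatible solutes also accumulate in many plants under cold or water deficit.

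Each array held 14688 spots. Of these, 13449 carried 4279 cDNAs, 4097 of them as 3 spots, and 1239 were controls or had no name and were left out. The cDNAs came from libraries enriched in stress-responsive transcripts, so a share of the array is not a share of the genome. The median spot was between 16.5 and 31.8 times as bright as its local background on the 6 arrays, and 31 to 182 spots per array were at the scanner's maximum. Log2 ratios of the 2 arrays of a plant correlated across cDNAs at r = 0.936 (A), 0.957 (B) and 0.948 (C), where cDNAs are no independent replicates and the arrays share both RNAs. Spots without a name were 3.19 (cabinet) and 3.39 (field) times as bright as their background. In both channels 222 cDNAs (5.19%) stayed at or under these levels, and they are called dim below.

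Of the 4279 cDNAs, 1349 (31.5%) differed between field and cabinet plants in 2005. Transcript levels were higher in the field for 701 cDNAs (16.4%) and lower for 648 (15.1%). A cDNA was called when limma's Benjamini-Hochberg adjusted p was under 0.05 and the mean difference was at least 1.5-fold. The split by direction depended on the normalization. Median centring in place of loess gave 791 higher and 613 lower, and loess by print tip gave 598 and 594. All 1349 called cDNAs had the same sign in 3 of 3 plants, as did 3207 (74.9%) of all cDNAs, and 1344 of the called cDNAs (99.6%) had the same sign on all 6 arrays. Calls were made from the same values, so this agreement largely follows from the call rule and is no separate support. Among called cDNAs the median difference was 2.08-fold upward and 2.04-fold downward. The direction was not balanced at every size with loess within arrays, the only normalization for which sizes were counted. Between 2-fold and 4-fold, 317 called cDNAs were higher and 228 lower, whereas between 4-fold and 8-fold 59 were higher and 82 lower, and between 8-fold and 16-fold 9 were higher and 25 lower. At 16-fold or more, 6 were higher and 8 lower. A further 158 cDNAs passed the adjusted p but stayed under 1.5-fold. The count of called cDNAs was 734 without plant A of 2005, 452 without plant B and 570 without plant C. It was also 734 with a limit of 2-fold.

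**Figure D1:**
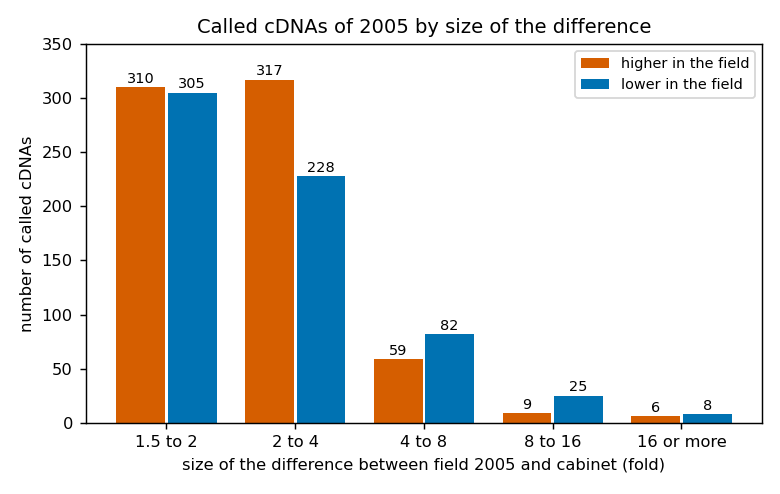
Number of called cDNAs (vertical axis) by the size of the difference between field 2005 and cabinet in fold (horizontal axis), with higher cDNAs and lower cDNAs as separate bars. Higher cDNAs outnumber lower ones from 2-fold to 4-fold (317 and 228), and lower cDNAs outnumber higher ones in each class above 4-fold.

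The share of cDNAs called rose with brightness. With the cDNAs cut into 4 classes of brightness, it was 21.2% in the dimmest class, 28.6% and 35.7% in the next ones and 40.7% in the brightest. The median absolute log2 ratio rose in the same order, from 0.294 to 0.648. The offset of 50 in the background correction shrinks ratios of dim spots, and its part in this rise was not tested. Only 5 of the 222 dim cDNAs were called. A cDNA that was not called may therefore have been too dim for a difference to be detected. Of the 24 cDNAs that carry a known gene's name, 8 were dim. The rule for dim needs both channels, so some other uncalled cDNAs also lay close to the level of unnamed spots.

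**Figure D2:**
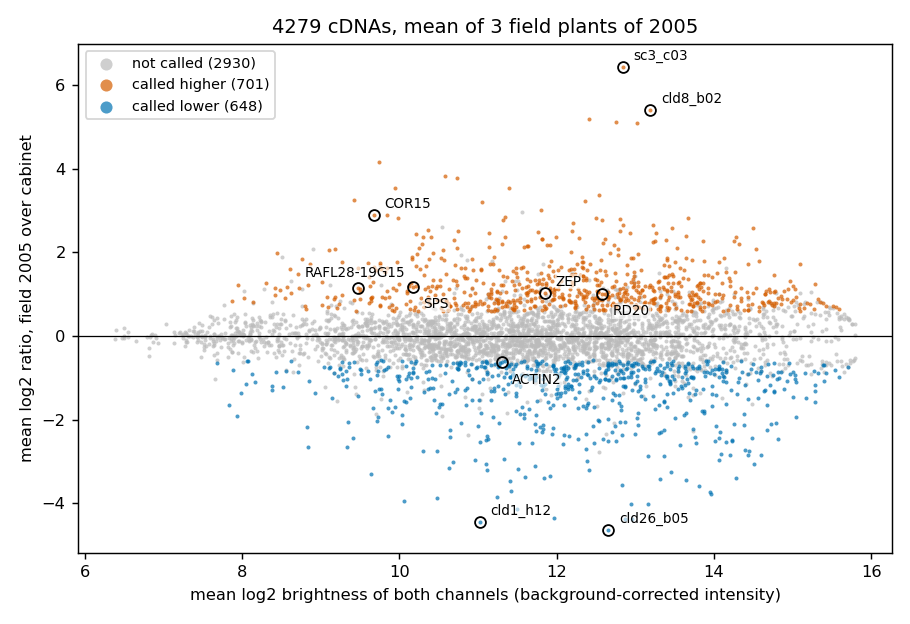
Mean log2 ratio of field 2005 over cabinet (vertical axis, n = 3 plants) against mean log2 brightness of both channels (horizontal axis) for 4279 cDNAs, with 701 called higher, 648 called lower and 2930 not called. The named cDNAs are circled. Ratios lie near 0 at the dim end of the plot, and the highest ratio, 6.43, belongs to the clone sc3_c03.

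The 3 field plants resembled each other, but their ratios were not equally large. Across cDNAs, log2 ratios correlated at r = 0.817 between plants A and B, 0.826 between A and C, and 0.856 between B and C, which may in part reflect cabinet RNA that they share. Plant B stood farthest from the cabinet, with 1009 cDNAs at least 1.5-fold higher and 1000 lower. Plant A had 772 higher and 865 lower, and plant C had 878 higher and 884 lower. At 4-fold or more the contrast was wider. Plant A had 58 cDNAs higher and 110 lower, plant B 129 and 151, and plant C 89 and 123. Among the 1349 called cDNAs, plant B had the largest absolute ratio of the 3 plants for 759 (56.3%) and plant A for 237 (17.6%). In all 3 plants, 545 cDNAs were at least 1.5-fold higher and 499 at least 1.5-fold lower, together 24.4% of the array. In contrast, 53 cDNAs were at least 1.5-fold higher in 1 plant and 1.5-fold lower in another. For 307 cDNAs, 1 plant lay at least 2-fold from the median plant, and that plant was A for 131, B for 124 and C for 52. The arrays of plant A were read on one day and those of plants B and C on the next. The parts of the scan day and of RNA amplification and labelling in these differences were not tested.

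The array carries 24 cDNAs named after known genes. Of these, 4 were called higher and 1 lower, or 20.8%, against 31.5% of all cDNAs, and 19 did not pass. These shares were not compared at equal brightness. Of the 24, 8 were dim, against 5.19% of all cDNAs. Only 5 of the 222 dim cDNAs on the array were called. The part of brightness in the lower share among the 24 was not tested. The median log2 ratio of the 24 was 0.02, and that of all cDNAs was -0.03. COR15, SPS, ZEP and RD20 were higher in the field, and ACTIN2 was lower. Groups were assigned from the names alone. By group, 1 of 3 cDNAs of ABA synthesis, 1 of 3 responsive to dehydration and ABA, 1 of 4 of the cold response and 1 of 6 housekeeping cDNAs were called. The only cDNA of carbon metabolism was called, and those of water transport and respiration and the 5 of other stress responses were not.

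**Figure D3:**
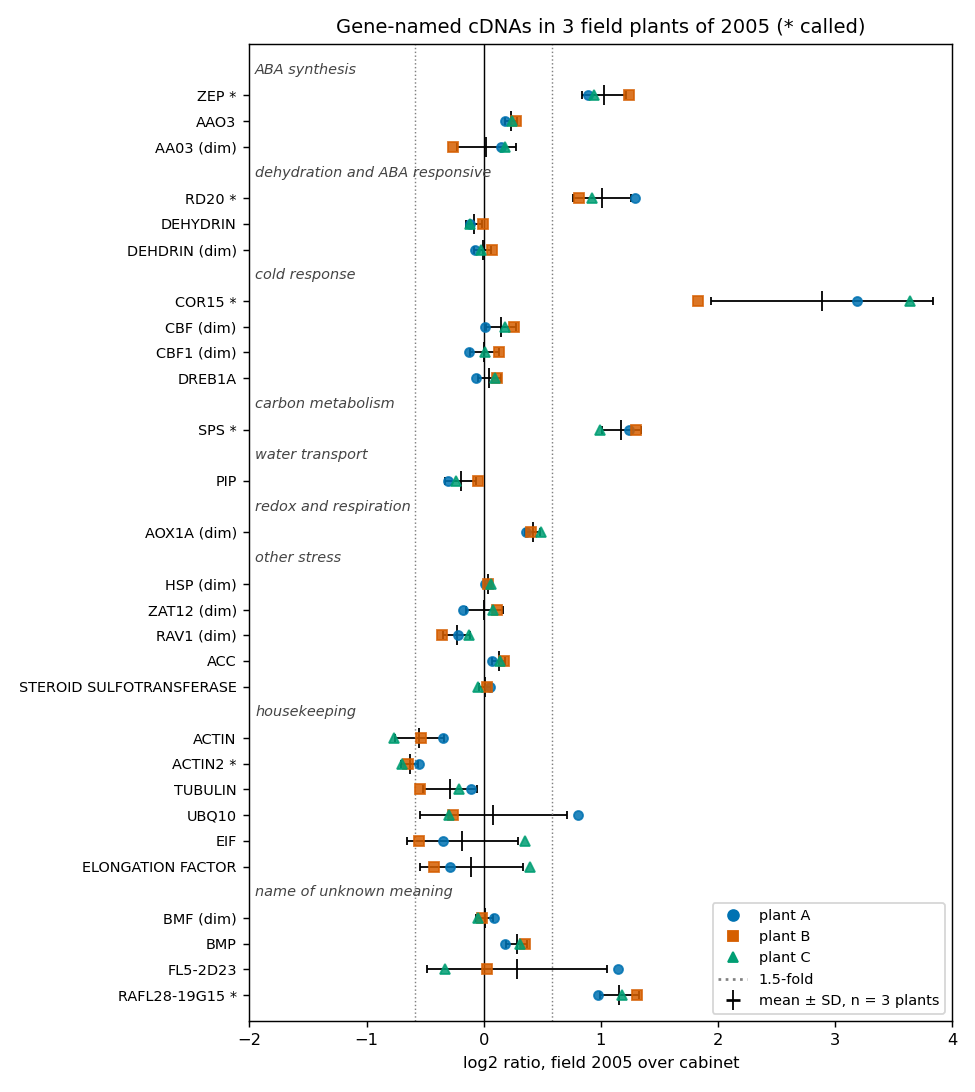
Log2 ratio of field 2005 over cabinet (horizontal axis) of 28 gene-named cDNAs in plants A, B and C, with the mean ± SD of 3 plants, grouped by the meaning of the name. Asterisks mark called cDNAs and dotted lines mark 1.5-fold. COR15 lies apart from the others at 2.89, while the cDNAs marked dim lie within 0.5 of 0.

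COR15, whose product stabilizes chloroplast membranes during freezing in Arabidopsis, had the highest ratio of the gene-named cDNAs. Its log2 ratio was 3.19 in plant A, 1.83 in plant B and 3.64 in plant C. Plant B was the lowest, but its value was still above every other gene-named cDNA in any plant. The mean was 2.89 ± 0.945 (SD, n = 3 plants), or 7.40-fold (SE of the log2 ratio 0.371, limma adjusted p = 0.00351). At each of its 3 spot positions all plants were higher, with ratios from 1.45 (plant B) to 4.28 (plant C). On the arrays of plant A the ratio was 2.48 with the field RNA in Cy5 and 3.90 with it in Cy3, whereas the arrays of plant B gave 1.86 and 1.80 and those of plant C gave 3.68 and 3.61. The cabinet signal of COR15 was 2.09 to 4.90 times the background over the 6 arrays, about the level of unnamed spots, and its field signal was 6.71 to 32.3 times the background. The size of the fold therefore rests on a cabinet level close to that of spots without a name.

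The transcription factors that act upstream of COR genes did not pass. CBF had a log2 ratio of 0.15, CBF1 0.01 and DREB1A 0.05, with limma adjusted p of 0.399, 0.975 and 0.792. CBF and CBF1 were dim, and DREB1A, at 3.45 (cabinet) and 3.30 (field) times the background, was at the level of the unnamed spots in the field channel. Transcripts that did not differ and transcripts that were not detected cannot be told apart for these cDNAs.

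ZEP, the zeaxanthin epoxidase that supplies precursors for ABA and takes part in the xanthophyll cycle, was higher in the field. Its log2 ratio was 0.89 in plant A, 1.24 in plant B and 0.94 in plant C. Each plant was at least 1.5-fold above the cabinet, with plant B highest. The mean was 1.02 ± 0.187 (SD, n = 3), or 2.03-fold (limma adjusted p = 0.0201), and its 3 spot positions gave 1.18, 1.12 and 0.78. ZEP was well above background in both channels, at 34.4 times in the cabinet and 67.9 times in the field. AAO3, the aldehyde oxidase of the last step of ABA synthesis, had ratios of 0.18, 0.28 and 0.24 in plants A, B and C (mean 0.23, limma adjusted p = 0.256), and a cDNA spelled AA03 had a mean of 0.02 and was dim. The signal of AAO3 was 2.88 (cabinet) and 3.47 (field) times the background, close to that of unnamed spots. The call of ZEP was lost when any 1 plant of 2005 was left out, with adjusted p of 0.0705 (without A), 0.116 (without B) and 0.083 (without C).

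RD20, a calcium-binding lipid-body protein induced by dehydration and ABA in Arabidopsis, was 2.02-fold higher. Its log2 ratio was 1.29 in plant A, 0.82 in plant B and 0.93 in plant C. All plants were again above 1.5-fold, but here plant A was highest and plant B lowest. The mean was 1.01 ± 0.250 (SD, n = 3, limma adjusted p = 0.0408), with 1.04, 1.06 and 0.94 at its spot positions and signals of 28.8 (cabinet) and 60.8 (field) times the background. Each plant had a lower ratio with the field RNA in Cy5 than in Cy3, with Cy5 minus Cy3 differences of -0.758, -0.332 and -0.416 in A, B and C. RD20 did not pass on the arrays with field RNA in Cy5 alone (log2 ratio 0.76, limma adjusted p = 0.105) or with loess by print tip (0.0727). Nor did it pass at an unadjusted limma p under 0.01, or when plant A (0.169), B (0.124) or C (0.132) of 2005 was left out. DEHYDRIN and DEHDRIN, which carry names of hydrophilic proteins of the dehydration response, had log2 ratios of -0.08 and -0.01 and did not pass. DEHDRIN was dim, and DEHYDRIN was 4.20 (cabinet) and 4.39 (field) times the background.

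SPS, sucrose phosphate synthase, a controlling enzyme in making sucrose, was higher in the field by nearly the same factor in each plant. Its log2 ratio was 1.24 in plant A, 1.30 in plant B and 0.99 in plant C. The mean was 1.18 ± 0.164 (SD, n = 3), or 2.26-fold (95% interval 0.84 to 1.51, limma adjusted p = 0.00318). Its 3 spot positions agreed within 0.153 (1.17, 1.26 and 1.10), although their field signals ranged from 6.67 to 26.6 times the background. COR15 and SPS were called under every alternative processing tried and without any 1 plant.

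PIP, a plasma membrane aquaporin, was among the brightest of the gene-named cDNAs, at 152 times the background in the cabinet and 150.9 times in the field. Its ratios were -0.31, -0.05 and -0.23 in plants A, B and C, below the cabinet in 3 of 3 plants, with a mean of -0.20 ± 0.133 (SD, n = 3) that did not pass (95% interval -0.49 to 0.10, limma adjusted p = 0.250). Its sign depended on the normalization, since with median centring in place of loess the mean was 0.16 (adjusted p = 0.423). AOX1A, the alternative oxidase of the mitochondrial electron transport chain, was 0.36, 0.40 and 0.49 above the cabinet. The mean of 0.42 had a limma adjusted p of 0.0386 but, at 1.34-fold, stayed under the fold limit, and AOX1A was dim. The arrays of a plant differed more than the plants did, for instance 0.12 and 0.69 in plant B with the field RNA in Cy5 and Cy3. The adjusted p was 0.281 with loess by print tip (log2 ratio 0.17), 0.232 with scan day as a block and 0.0539 with the plant letter as a block. HSP, ZAT12, a zinc finger protein of oxidative stress, and RAV1, a transcription factor with AP2 and B3 domains, were dim as well, with mean ratios of 0.04, 0.01 and -0.23. ACC and STEROID SULFOTRANSFERASE had means of 0.13 and 0.01. ACC was 3.99 (cabinet) and 4.32 (field) times the background and STEROID SULFOTRANSFERASE 3.65 and 3.58 times, not far above unnamed spots. None of these 5 cDNAs, placed under other stress responses by name alone, passed.

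The housekeeping cDNAs did not form a flat baseline. ACTIN2 was lower in every plant, at -0.55 in A, -0.65 in B and -0.70 in C. Its mean of -0.63 ± 0.0747 (SD, n = 3, 1.55-fold) had a limma adjusted p of 0.0422, and its 2 spot positions gave -0.58 and -0.69. ACTIN had ratios of -0.35, -0.53 and -0.76 and a mean of -0.55 ± 0.207 (SD, n = 3). At 1.46-fold and a limma adjusted p of 0.0598, it passed neither the fold limit nor the adjusted p. Both actins of the cytoskeleton were thus below the cabinet in 3 of 3 plants, on either side of the threshold. TUBULIN, also of the cytoskeleton, had a mean of -0.29 and did not pass (limma adjusted p = 0.297). ACTIN2 lost its call with loess by print tip (limma adjusted p = 0.0518), with arrays scaled to a common spread (0.0603) and with field RNA in Cy5 alone (0.130). Its call was also lost at an unadjusted limma p under 0.01 and with a 2-fold limit. The same held when plant A (0.124), B (0.161) or C (0.168) of 2005 or plant C of 2003 (0.0531) was left out.

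Other housekeeping cDNAs split the plants. UBQ10, a polyubiquitin, was 0.81 above the cabinet in plant A but 0.26 and 0.30 below it in plants B and C. Plant A was the highest at each of the 5 spot positions of UBQ10, from 0.64 to 1.00, while plants B and C ran from -0.63 to 0.00. The mean of 0.08 ± 0.628 (SD, n = 3) therefore describes none of the plants. EIF, a translation initiation factor, had ratios of -0.35, -0.55 and 0.35, and ELONGATION FACTOR, also of translation, had -0.29, -0.43 and 0.39. In both, plants A and B were below the cabinet and plant C was above it, at the 2 spot positions of EIF and the 1 of ELONGATION FACTOR. These 3 cDNAs were 21.8 to 52.4 times as bright as the background in the field channel.

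Of 4 cDNAs with gene-like names whose meaning the sources used here do not give, RAFL28-19G15 was called. Its log2 ratio was 0.98 in plant A, 1.31 in plant B and 1.19 in plant C, with a mean of 1.16 ± 0.166 (SD, n = 3, 2.23-fold, limma adjusted p = 0.00351). Each plant was higher, but each had a larger ratio with the field RNA in Cy3 (1.41, 1.56 and 1.65) than in Cy5 (0.55, 1.05 and 0.72). Its 5 spot positions gave means of 0.72 to 1.32. The cabinet signals there were 3.72, 10.9, 3.93, 2.66 and 3.69 times the background, all but the 10.9 close to the level of unnamed spots. The position with 10.9 gave a mean of 1.31. FL5-2D23 split the plants, at 1.15 in A, 0.03 in B and -0.33 in C, in the same order of A above B above C at each of 3 spot positions, and did not pass (limma adjusted p = 0.519). BMP had a mean of 0.28 and BMF of 0.01, and neither passed. BMF was dim, and BMP was 3.90 (cabinet) and 3.69 (field) times the background.

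**Figure D4:**
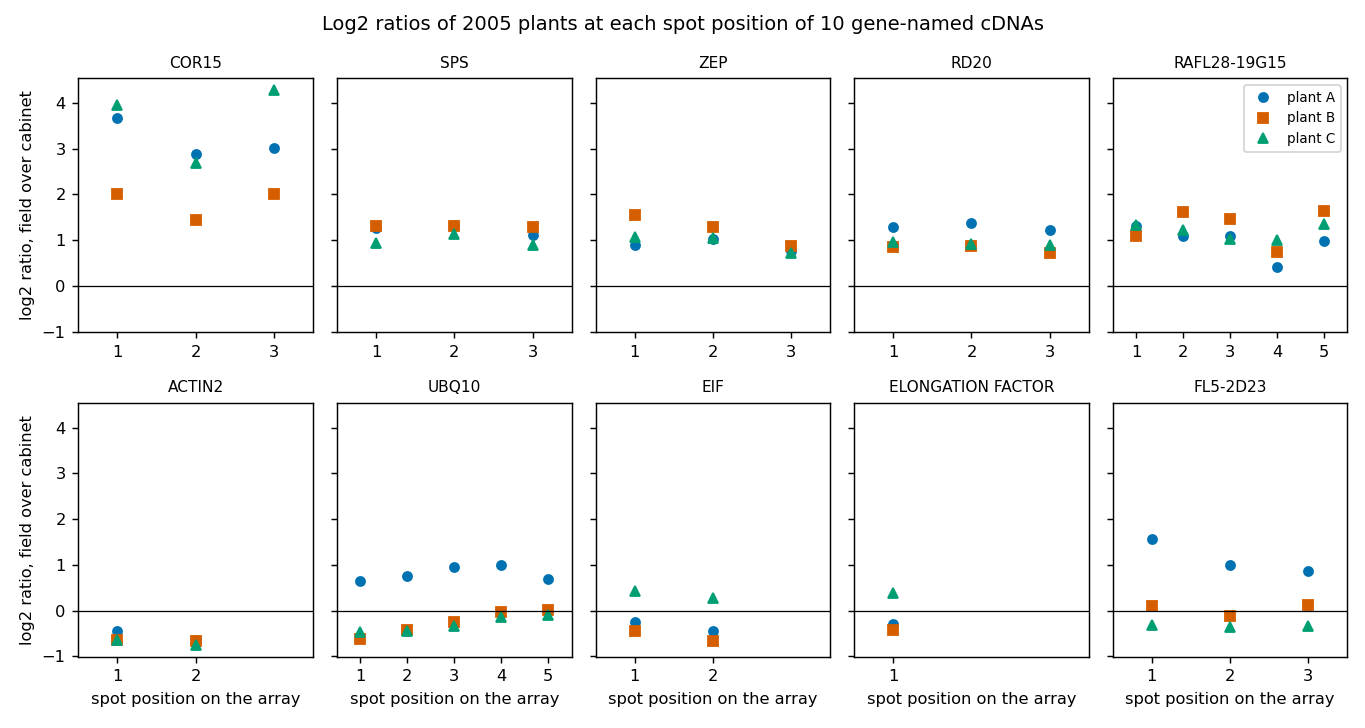
Log2 ratio of field 2005 over cabinet (vertical axis) at each spot position on the array (horizontal axis) in plants A, B and C for 10 gene-named cDNAs. Plant A is above 0 and above the other plants at all 5 positions of UBQ10, plant C is above the others in EIF and ELONGATION FACTOR, and all plants are above 0 at every position of COR15, SPS, ZEP, RD20 and RAFL28-19G15.

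The largest differences belonged to clones without a gene name. The clone sc3_c03 had log2 ratios of 5.75, 7.29 and 6.25 in plants A, B and C, and a mean of 6.43 ± 0.786 (SD, n = 3, 86.0-fold, limma adjusted p = 0.000878). Its cabinet signal was 3.45 to 9.19 times the background and its field signal 157 to 420 times, so the channels did not overlap on any array. Its ratio was larger with the field RNA in Cy5 by 1.00 in plant A, 0.98 in B and 1.03 in C. The clone cld8_b02 followed at 4.90, 5.82 and 5.48, with a mean of 5.40 ± 0.467 (SD, n = 3, 42.2-fold, limma adjusted p = 0.00123). On the lower side, cld26_b05 had ratios of -4.10, -5.29 and -4.51, and a mean of -4.63 ± 0.605 (SD, n = 3, 24.8-fold lower, limma adjusted p = 0.00151). Its signal was 95.7 to 274 times the background in the cabinet and 4.42 to 16.3 times in the field. The clone cld1_h12 had ratios of -4.20, -4.48 and -4.64 (mean -4.44 ± 0.223, SD, n = 3, 21.7-fold lower, limma adjusted p = 0.000784), and its field signal of 3.63 times the background was close to that of unnamed spots.

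Clone names open with series letters whose meaning the sources used here do not give. The share called within a series was between 28.2% and 38.9%, around the 31.5% of all cDNAs, of which 16.4% were higher and 15.1% lower. Of 1974 cDNAs whose names begin with cld, 374 (18.9%) were called higher and 302 (15.3%) lower. Names in drt (793 cDNAs) held 112 called higher and 112 lower (14.1% each), and those in drtg (477 cDNAs) held 70 (14.7%) and 68 (14.3%). Names in slt (653 cDNAs) held 68 called higher (10.4%) and 119 lower (18.2%), and the 145 in sltg held 18 (12.4%) and 29 (20%). The smaller series sc (135 cDNAs) held 32 higher (23.7%) and 14 lower (10.4%). Of 38 cDNAs in sd, 9 (23.7%) were higher and 2 (5.26%) lower, and of 36 in ss, 13 (36.1%) were higher and 1 (2.78%) lower. Clones of the same transcript may stand more than 1 time on the array, so these counts are of cDNAs and not of genes, and no test was made between the series of names.

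The 2005 ratios were set beside those of 3 field plants from 2003, the other year of the series, described in the study as much drier. The ratios of both years were taken against cabinet plants that may be the same, and no array of one year was read on the same day as one of the other, so year and scan day cannot be told apart. Ratios varied less between plants in 2005, with a median SD of 0.236 against 0.375 in 2003. The 2 arrays of a plant also differed less in 2005. Their median absolute difference was 0.178, 0.182 and 0.185 in plants A, B and C, against 0.306, 0.194 and 0.263 in 2003. The part of array noise in the SD was not tested. For 68 cDNAs (1.59%), the difference between the years itself passed (limma, adjusted p under 0.05 and 1.5-fold), 33 in the direction of a higher 2005 ratio and 35 in that of a lower one. With the plant letter as a block the count was 353 (145 higher and 208 lower), including all 68. The letters come from the sample titles, and their agreement across years was seen in these same data. Adjusted p-values with the block are therefore no independent support. Without the block, leaving out any of the 2005 plants brought the count of 68 to 0, and leaving out plant A, B or C of 2003 gave 7, 91 and 158. None of the 28 gene-named cDNAs was among the 68. COR15 was 2.13 higher in 2005 (0.76 in 2003, adjusted p of the difference 0.0727, 0.0473 with the block). SPS was 0.96 higher (0.22 in 2003, adjusted p = 0.0607, 0.0467 with the block), and RAFL28-19G15 was 1.04 higher (0.12 in 2003, adjusted p = 0.0572, 0.0438 with the block). RD20 had a lower ratio in 2005, 1.01 against 2.46, but the difference passed neither fit (limma adjusted p = 0.102, 0.0709 with the block). FL5-2D23 had 0.28 against 1.59 in 2003 (adjusted p = 0.135, 0.0388 with the block). ZEP had 1.02 against 0.42 (adjusted p = 0.306). The clone cld1_h12 was among the 68, at -4.44 in 2005 and -1.31 in 2003, a difference of -3.13 (SE 0.420, limma adjusted p = 0.0362).

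**Figure D5:**
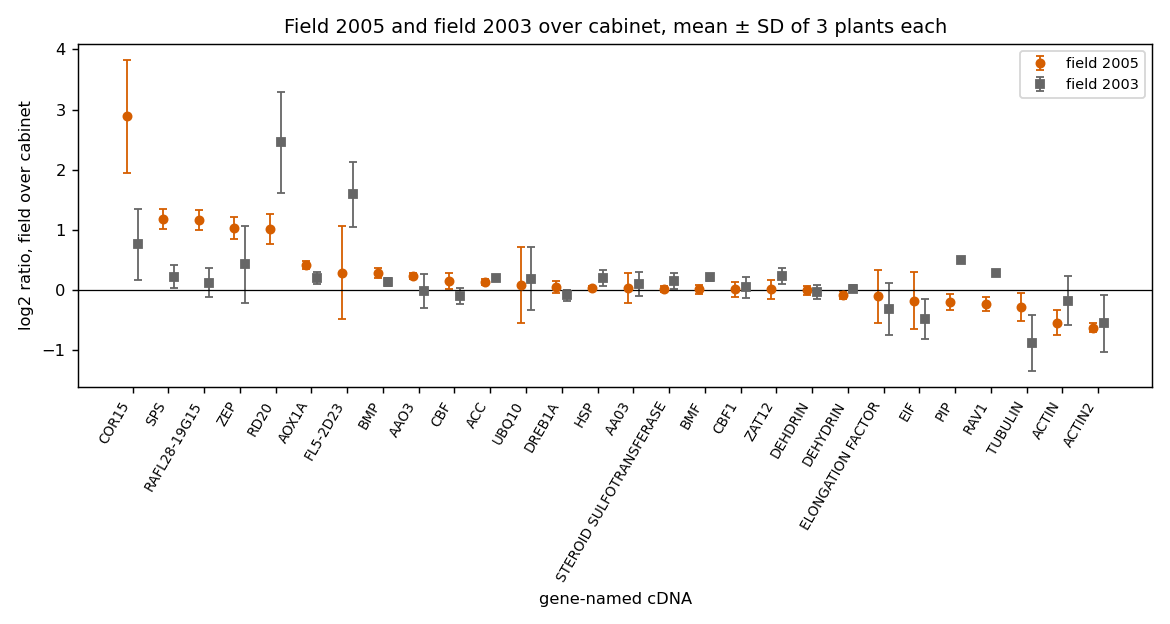
Log2 ratio of field over cabinet (vertical axis, mean ± SD, n = 3 plants for each year) of 28 gene-named cDNAs (horizontal axis) in 2005 and 2003, ordered by the 2005 mean. COR15 has 2.89 in 2005 and 0.76 in 2003, and RD20 has 1.01 in 2005 and 2.46 in 2003.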

How the data were processed

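Labelled cDNA from field and cabinet leaves was hybridized to a custom cDNA array, scanned with ScanArray and quantified with QuantArray. Per the file headers, the deposited intensity of each spot and its local background is linear and raw. Processed values, deposited as well on a log10 scale, come with no method of normalization given in the sources used here. In 2005 they correlated with the scanner's field over cabinet ratios (r from 0.936 to 0.992), with slopes of 0.284 to 0.318 per log2 unit. Their array medians were -0.0023 and 0.0112 for plant A, -0.0213 and -0.0097 for plant B and -0.0145 and -0.00184 for plant C. This settled scale and direction, and centring was near 0. They served as an alternative.

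Normexp with an offset of 50 served as background correction in limma 3.58.1 (R 4.3.3), and log2 ratios were normalized by loess within arrays, with control spots at weight 0 and then left out. Values were averaged over the spots of each cDNA and next over both arrays of each plant. All 6 plants of both years were fitted with a mean for each year and 1 shared spread per cDNA (4 residual and 2.66 prior degrees of freedom), so the p-values also draw on the spread of 2003. The median SE was 0.192, an unadjusted 95% interval of 1.37-fold to either side, and the number of arrays limits the precision. The threshold was an adjusted p (Benjamini-Hochberg) under 0.05 with 1.5-fold, the fold limit of the study, whose Bayesian model was not repeated.

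Plants that share a letter across years deviated together from the mean of their year (r = 0.576 for A, 0.243 for B and 0.314 for C across cDNAs). Other pairs had r from -0.331 to 0.0515. Deviations from the mean of a year cancel within that year, so positive values for like letters push the other pairs toward negative ones. The letters were therefore also fitted as a block. The letters come from the sample titles, and the field plants of the 2 years are different plants. Whether plants of the same letter share a cabinet RNA is not stated. Alternatives covered background, normalization, dye, dim and saturated spots, call rule, plants left out, letter block and scan day. Members and lists were chosen with earlier results of these data known. All gene-named cDNAs are given, and of the clones those with the 2 highest and 2 lowest called ratios, because no table used here links clones to genes. Like spellings were kept apart. Figures were drawn with matplotlib 3.10.9.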

Additional observations from a re-analysis of the deposited data

Results flagged for a closer look

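The ratio of field over cabinet differed between 2005 and 2003 for 68 cDNAs in limma's test of the difference, and the clone cld1_h12 was one of them, with a 2005 minus 2003 difference of -3.13 (SE 0.420, adjusted p = 0.0362). Of the 28 gene-named cDNAs, CBF, PIP and RAV1 had ratios on opposite sides of the cabinet in the years, in 3 of 3 plants each time. The share of all cDNAs with this pattern was not counted, so it is not known whether these 3 stand out. For CBF, the difference was 0.25, with 2005 plants at 0.01, 0.26 and 0.18 and 2003 plants at -0.04, -0.01 and -0.26 (limma adjusted p = 0.415). For PIP it was -0.70, with 2005 plants at -0.31, -0.05 and -0.23 and 2003 plants at 0.47, 0.52 and 0.51 (limma adjusted p = 0.0736). For RAV1 it was -0.51, with 2005 plants at -0.22, -0.35 and -0.13 and 2003 plants at 0.30, 0.31 and 0.24 (limma adjusted p = 0.132). None of these 3 differences passed. The mean of PIP in 2005 moved to the other side of the cabinet with median centring (0.16). CBF and RAV1 were dim, while PIP was bright in both channels.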

How the results depend on the processing

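The count of called cDNAs in 2005 stayed within 1.5 times of 1349 under the settings tried, from 1183 (unadjusted p under 0.01, a threshold the study used) to 1728 (arrays as independent replicates), except a 2-fold limit (734, with 391 higher and 343 lower) and leaving out a plant, which gave 452 (217 higher, 235 lower) to 1569 (791 higher, 778 lower). The 2005 plants fitted alone gave 1638, of which 1342 were shared with the 1349. The count of differences between the years, 68, became 168 with no background correction, 146 with plain subtraction, 277 with arrays scaled, 127 from the deposited values, 1241 with arrays as independent replicates, 468 at unadjusted p under 0.01, 353 with the replicate block and 420 with scan day as a random block, and ran from 0 to 158 with a plant left out. The causes were not tested. In limma, 893, 687 and 846 cDNAs had an unadjusted p under 0.05 where the count was 0 (without A, B and C of 2005). The block changed no call of 2005 among the gene-named cDNAs and moved the 2005 count to 1541. Among values of gene-named cDNAs under the alternatives, 672 kept their call or stayed uncalled, although 43 of these, called in neither setting, changed sign, 18 lost a call (ZEP, RD20 and ACTIN2), 1 gained one (AOX1A, with no fold limit) and none reversed a call. One added alternative, chosen after seeing the data, used only spots whose names end in the letter G and gave 1334. Signal over background limited at least the 222 dim cDNAs.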
